A study of Mus musculus with 2 samples.

Results

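Gene deserts are long stretches of chromosome that hold no protein-coding gene, and here they were taken as 1 Mb windows of chromosomes 1 to 19 that no midpoint of a RefSeq protein-coding gene body fell in. Of 2413 autosomal windows past the first 3 Mb of each chromosome, 270 were such deserts (11.2%), with 268 Mb of sequence. A peak belonged to a desert when the midpoint of its start and end lay in one. This rule gave 820 members of 6996 peaks in the series, 747 of them in the transgenic list and 73 in the wild-type list. The rule used gene positions only and no measured value.

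The peaks mark H3K9me2, a dimethylated lysine on the tail of histone H3, immunoprecipitated from embryonic mouse cortex. There were 2 groups of 1 library each: TBC1D3-transgenic C57BL/6 embryos at embryonic day 15.5, and wildtype C57BL/6 embryos of the same day. The promoter that drives the transgene, the line and the pooling of embryos are not given in the sources used here. With 1 library a genotype there was no test between genotypes, and intervals are exact 95% intervals that cover counting error only, for reads without molecular identifiers. The cortex holds many cell types, so how many cells carried the mark and how much each carried cannot be told apart.

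H3K9me2 is laid down in mammals mainly by the paired methyltransferases G9a and GLP. It is known for broad domains over silent, gene-poor chromatin, much of it held at the nuclear lamina, rather than for sharp sites at promoters. Deserts are often flanked by genes of development and of neuronal adhesion, and some hold distant enhancers of those neighbours.

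The transgenic call rested on 20697113 ChIP tags and 20968853 input tags and the wild-type call on 26735120 and 25431051, per the file headers. The fragment extension was 111 bp in the transgenic call and 57 bp in the wild-type call. The lists were therefore made with unlike settings, and what these contribute to any difference in peak number between them was not tested.

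Coding sequence was not wholly absent from the deserts. A coding gene body reached into 61 of the 270 windows from a midpoint outside, and coding bodies covered 17.0 Mb, or 6.35% of desert length. Another 24.6 Mb lay in genes of other kinds. By midpoint the deserts held 455 lncRNA genes, 617 pseudogenes, 19 miRNA genes and 236 antigen receptor V segments, which the annotation does not class as protein-coding. The remaining 226 Mb (84.5%) lay in no annotated gene.

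The rule on coding genes leaves miRNA genes inside deserts, and 3 of them are shown for where they lie. The genes of miR-181a and miR-181b, which are well studied in brain and immune cells, stand side by side on chromosome 1. The third, miR-6238, had a peak closest to its hairpin among the 17 hairpins listed in deserts. Capitals mark the seed, bases 2 to 8, which miR-181a and miR-181b share. The sequences are RefSeq's for GRCm38.p6, the assembly that mm10 represents.
mmu-miR-181a-5p, chr1:137966468-137966490, plus strand: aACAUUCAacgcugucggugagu
mmu-miR-181b-5p, chr1:137966650-137966673, plus strand: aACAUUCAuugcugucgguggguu
mmu-miR-6238, chr7:53891796-53891817, minus strand: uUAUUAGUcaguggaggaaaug

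None of the 17 hairpins overlapped a peak. Distances were listed for these 17, where 19 miRNA genes were counted above. The share over all autosomal hairpins was not worked out, so no result is read from this. The nearest transgenic peak lay 18.2 kb from Mir6238 and 52.3 kb from Mir181a-1, and the nearest wild-type peaks lay 1378 kb and 257 kb away. RefSeq promoter windows, which run from 250 bases before to 50 after a gene start, were also without peaks in deserts. Of 419 such windows in deserts, 0 overlapped a transgenic peak and 0 a wild-type peak. Each allows a share of up to about 0.716%, taken as 3 events over 419 and not as an exact interval. Over all autosomal promoter windows the share was 0.0605% for transgenic and 0.00637% for wild-type peaks. At those rates a lower share at desert promoters was not detectable.

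Deserts held close to their share of the peaks. They took 12.3% of autosomal transgenic peaks (95% interval 11.4 to 13.1) and 9.84% of autosomal wild-type peaks (7.79 to 12.2), for 11.2% of the length. The transgenic density was 2.79 peaks per Mb in deserts (2.59 to 2.99) and 2.5 in all other windows (2.44 to 2.57), a ratio of 1.11 (1.03 to 1.20). In the wild-type library it was 0.272 peaks per Mb in deserts (0.213 to 0.342) and 0.313 elsewhere (0.290 to 0.338), a ratio of 0.869 (0.673 to 1.11). The transgenic interval lay above 1 and the wild-type interval included 1. The transgenic ratio turned to 0.918 with windows of 2 Mb and to 0.969 with the first 3 Mb of each chromosome counted as length. Its interval reached 1 when only windows free of any coding body were taken as deserts, at 1.08 (0.986 to 1.17), when predicted genes were left out, at 1.08 (0.999 to 1.16), and among peaks with a fold of at least 5, at 1.32 (0.809 to 2.06). The wild-type ratio turned to 1.72 among peaks with a fold of at least 5, to 1.19 among those with a −log10 p of at least 5 and to 1.08 with windows of 500 kb. Its whole interval lay below 1 with windows of 2 Mb, at 0.573 (0.312 to 0.968). The same held with the first 3 Mb of each chromosome counted as length, at 0.757 (0.586 to 0.965).

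A single coding gene in the window went with more peaks than none, in both libraries. Windows just outside the rule, with exactly 1 coding gene, held 3.34 transgenic peaks per Mb (3.14 to 3.55) and 0.381 wild-type peaks per Mb (0.315 to 0.457), against 2.79 and 0.272 in deserts. Set beside windows with 1 to 5 coding genes, deserts had 0.867 times the transgenic density (0.799 to 0.940) and 0.721 times the wild-type density (0.553 to 0.930). Beside windows with more than 15 coding genes they had 1.95 times (1.75 to 2.18) and 1.52 times (1.08 to 2.13). Of the classes with 0, 1 to 5, 6 to 15 and more than 15 coding genes, that with 1 to 5 was the densest in both libraries.

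**Figure D1:**
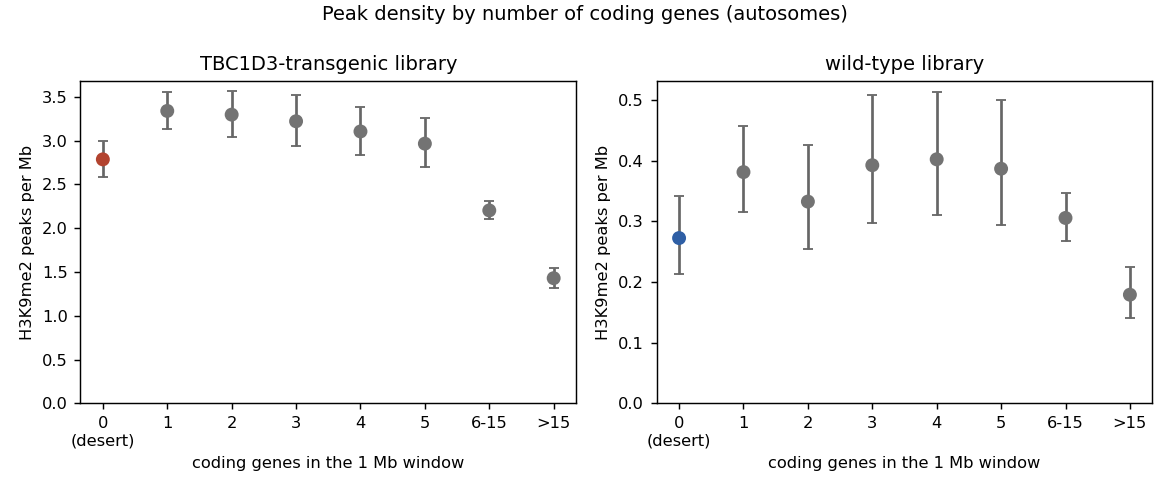
Peaks per Mb of autosomal sequence (y axis) against the number of coding genes in the 1 Mb window (x axis), with the transgenic library on the left and the wild-type library on the right; bars are exact Poisson 95% intervals. Deserts, in colour, sit at 2.79 and 0.272 peaks per Mb, below windows with 1 coding gene at 3.34 and 0.381 and above windows with more than 15 at 1.43 and 0.179.

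Within sequence that lies in no gene, deserts carried fewer peaks than the gene-free sequence of other windows. The transgenic density there was 2.81 peaks per Mb in deserts and 3.09 elsewhere, a ratio of 0.910 (0.834 to 0.991). The wild-type density was 0.239 in deserts and 0.391 elsewhere, a ratio of 0.610 (0.45 to 0.813). Both ratios passed 1 at a fold of at least 5, at 1.07 and 1.31, and the transgenic ratio also passed 1 with a −log10 p of 5 or more, at 1.02, and with the list cut to the wild-type number, at 1.11. With windows of 500 kb the transgenic ratio was 1.08 with its whole interval above 1 (1.01 to 1.16), so the direction rests on the window size. Without chromosome 15 the transgenic interval reached 1 (0.851 to 1.01), as did the wild-type interval with a −log10 p of 5 or more, at 0.893 (0.523 to 1.45). Coding bodies that reached into deserts held 37 transgenic and 8 wild-type peaks, or 2.17 and 0.470 per Mb. In other windows coding bodies held 1.77 and 0.209 per Mb, so the ratios of deserts to other windows were 1.23 (0.864 to 1.70) and 2.25 (0.958 to 4.52), both with 1 in the interval. The classes differ widely in make-up: coding bodies made up 6.35% of desert length and 45.2% elsewhere.

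The coding genes whose bodies held desert peaks in the transgenic list ranged from Mgmt, a DNA repair enzyme gene of 234 kb, to Ptprd, a synaptic receptor phosphatase gene of 2271 kb. Lsamp, a neuronal adhesion protein of the IgLON family, held 5 transgenic and 0 wild-type desert peaks. Fhit, a nucleotide hydrolase in a fragile site, held 3 transgenic and 1 wild-type, and Pard3b, a cell polarity protein, held 3 and 0. Ptprd held 2 and 1. In both libraries 1 desert peak lay inside Dcc (a netrin receptor), Kcnh7 and Kcnip4 (a potassium channel and a channel-binding protein) and Tenm3 (a teneurin adhesion protein). Desert peaks lay in 24 coding genes in the transgenic list and in 8 in the wild-type list. These genes were named after their counts were seen, and the wild-type counts of 0 and 1 differ by less than counting error.

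Among other genes, lncRNA genes held most of the desert peaks: 64 transgenic and 12 wild-type peaks lay in an lncRNA body and 9 and 0 in a pseudogene. The length that lncRNA and pseudogene bodies cover was not worked out, so no preference is read from these counts. The lncRNA gene 1700019L22Rik on chromosome 8, 800 kb long and in the desert between Tenm3 and Aga, held 5 transgenic peaks and 0 wild-type peaks. The lncRNA genes 6530403H02Rik, Gm32647, Gm33384 and 4930474G06Rik held 3 transgenic and 0 wild-type peaks each, and 4930500H12Rik held 3 and 1. Pvt1, the lncRNA gene next to Myc, held 0 transgenic and 2 wild-type peaks. Where lncRNA genes overlap or run antisense, a peak counted for each. Density in gene bodies of these other kinds was 2.97 transgenic and 0.447 wild-type peaks per Mb. In other windows it was 3.22 and 0.447. The ratios of deserts to other windows were 0.923 (0.713 to 1.18) and 1.00 (0.481 to 1.89), both with 1 in the interval.

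The antigen receptor windows were nearly empty. The 5 desert windows that hold immunoglobulin and T cell receptor segments, on chromosomes 6, 12 and 14, held 1 transgenic and 0 wild-type peaks between them. All 5 Mb lie inside gene entries that the annotation does not class as protein-coding. Without the 5 windows the density in desert gene bodies of these other kinds was 3.67 transgenic peaks per Mb (2.87 to 4.63). In the wild-type list it was 0.561 peaks per Mb (0.280 to 1.00). These windows were singled out after their values were seen, and whether reads align uniquely to their repeated segments was not tested.

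Peaks thinned out toward the middle of deserts. In desert windows the transgenic density was 4.14 peaks per Mb at 50 to 200 kb from the nearest coding gene (3.29 to 5.14) and 3.31 at 200 to 500 kb (2.88 to 3.79). It was 2.56 at 500 kb to 1 Mb (2.25 to 2.90) and 2.27 beyond 1 Mb (1.92 to 2.67). The wild-type density over the same steps was 0.404, 0.392, 0.246 and 0.0914 peaks per Mb. Beyond 1 Mb the transgenic library had 0.685 times its density at 200 to 500 kb (0.552 to 0.849), and the wild-type library 0.233 times (0.0782 to 0.582). Both ratios stayed below 1 under every alternative run, from 0.629 to 0.776 and from 0.204 to 0.364, but their intervals reached 1 with a fold or −log10 p of at least 5 and with windows of 2 Mb. So did the transgenic interval with its list cut to the wild-type number.

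At equal distance from a coding gene, most differences between deserts and other windows were within counting error. Up to 50 kb deserts held 4.31 transgenic peaks per Mb (2.55 to 6.81) and other windows 2.53 (2.40 to 2.66), with only 4.18 Mb of desert that near. At 50 to 200 kb they held 4.14 and 3.79, a ratio of 1.09 (0.863 to 1.37). At 200 to 500 kb deserts held 3.31 transgenic peaks per Mb and other windows 3.67, a ratio of 0.904 (0.771 to 1.06). At 500 kb to 1 Mb they held 2.56 and 2.73, a ratio of 0.939 (0.744 to 1.19). In the wild-type library the ratio was 0.824 (0.350 to 1.66) at 50 to 200 kb, 0.997 (0.608 to 1.59) at 200 to 500 kb and 2.34 (0.805 to 9.29) at 500 kb to 1 Mb, the last with 4 peaks in other windows. Each of these ratios had 1 in its interval, so a difference between deserts and other windows beyond 50 kb was not detectable at this number of peaks.

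**Figure D2:**
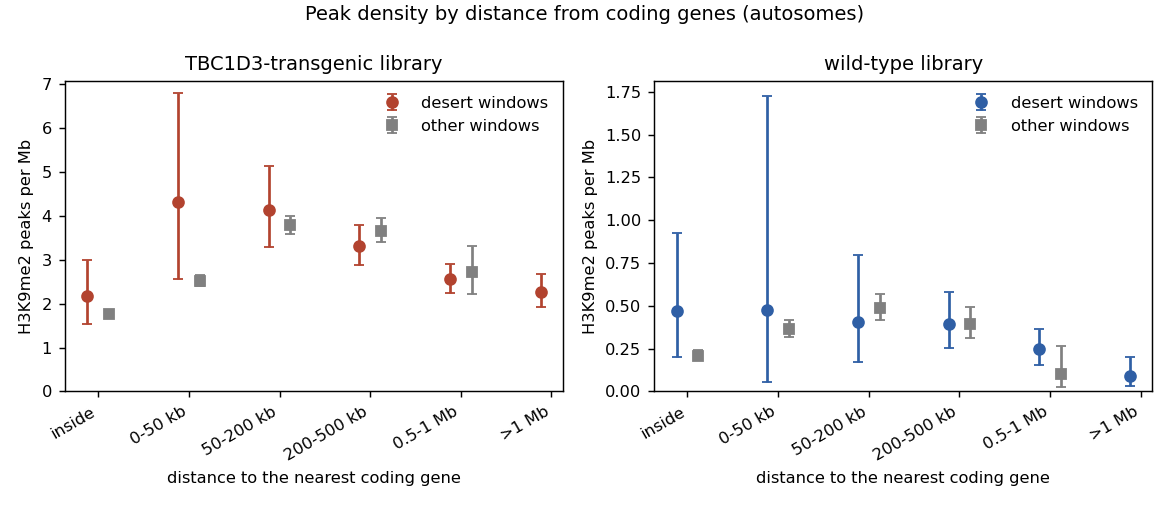
Peaks per Mb (y axis) by distance of the peak's midpoint to the nearest coding gene (x axis), for desert windows (coloured circles) and other windows (grey squares), transgenic library left and wild-type library right; bars are exact Poisson 95% intervals. In deserts the transgenic density is 4.14 at 50 to 200 kb and 2.27 beyond 1 Mb, and the wild-type density is 0.404 and 0.0914.

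Transgenic desert peaks lay a median of 534 kb from the nearest coding gene and wild-type desert peaks 401 kb, where the median over all desert positions was 624 kb. Beyond 1 Mb lay 149 transgenic peaks (19.9% of those in deserts) and 6 wild-type peaks (8.22%), for 24.5% of desert length. The transgenic peak farthest from a coding gene lay 2168 kb from Celf4, on chromosome 18. The farthest wild-type peak lay 1451 kb from Slc10a2, a bile acid transporter gene on chromosome 8.

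The ratio of transgenic to wild-type peaks was 10.2 in deserts (8.04 to 13.2) and 7.99 in other windows (7.37 to 8.67). The odds ratio between deserts and other windows was 1.28 (0.992 to 1.67), and its interval included 1. By distance the ratio of transgenic to wild-type peaks was 4.625 inside coding genes, 9 up to 50 kb and 10.25 at 50 to 200 kb. It was 8.44 (5.56 to 13.3) at 200 to 500 kb and 10.4 (6.84 to 16.6) at 500 kb to 1 Mb. Beyond 1 Mb it was 24.8 (11.1 to 68.8), where it rests on 6 wild-type peaks, and this interval overlapped that of every nearer step. In single-window deserts the ratio was 8.68 (6.34 to 12.1), and in deserts of 3 or 4 windows 15.4 (7.90 to 34.5), with intervals that overlapped. With the transgenic list cut to its strongest peaks by p, as many as the autosomal wild-type list, deserts held 108 transgenic peaks and the ratio was 1.48 (1.09 to 2.02). Both lists then held 742 autosomal peaks, so over all windows that ratio is 1 by design.

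Few desert windows lacked a transgenic peak. Of the 270 windows 245 held a transgenic peak (90.7%), where 82.9% of all autosomal windows did, and 62 held a wild-type peak (23.0%), where 24.7% of all did. Windows with 1 to 5 coding genes held a transgenic peak in 92.4% of cases, so this was not particular to deserts. The median desert window held 2 transgenic peaks and the fullest 10. At least 6 transgenic peaks were listed in 27 desert windows, or 10% against 9.32% of all windows and 14.3% of those with 1 to 5 coding genes. The variance of transgenic counts was 1.47 times their mean in deserts, 1.78 times in other windows and 1.54 times in windows with 1 to 5 coding genes. Peaks that fell independently at 1 rate would give a value near 1. The transgenic intervals given here assume such peaks, so they are too narrow where counts vary more. Desert windows with a wild-type peak held a mean of 3.11 transgenic peaks and those without held 2.66. Across the 270 desert windows, which are parts of the same 2 libraries, the counts had a Pearson r of 0.106. In other windows the means were 3.24 and 2.24 and r was 0.213, so this was not particular to deserts.

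**Figure D3:**
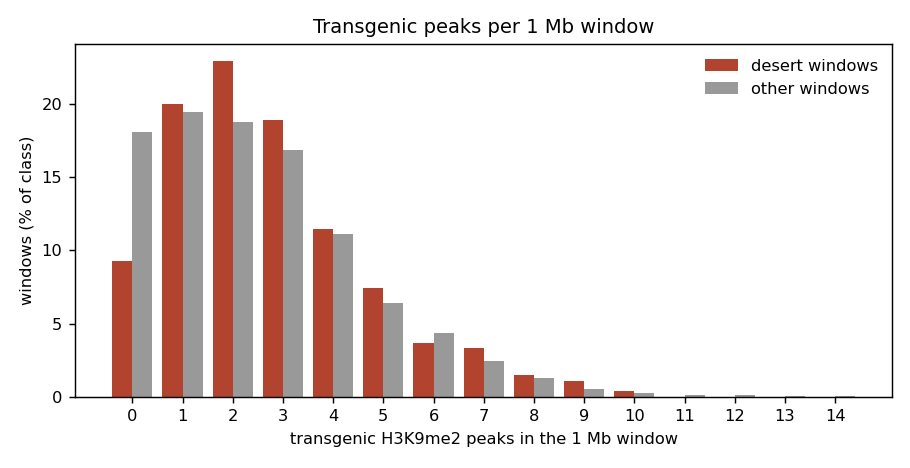
Share of 1 Mb windows in each class (y axis, percent) by number of transgenic peaks in the window (x axis), with desert windows in red and other autosomal windows in grey. Windows without a transgenic peak make up 9.26% of deserts and 18.1% of the others, and the highest counts, 11 to 14, occur in other windows.

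Adjoining windows formed 185 deserts, of which 122 were 1 window long, 47 were 2, 10 were 3 and 6 were 4. The single windows include cut-off chromosome ends of 1087 bp on chromosome 2 and 21242 bp on chromosome 12. Both ends were reached by a coding body and held no peak. Isolated windows were the densest, at 3.18 transgenic and 0.367 wild-type peaks per Mb. Deserts of 2 windows held 2.40 and 0.213, and over isolated ones their ratios were 0.755 (0.638 to 0.893) and 0.580 (0.324 to 1.01). Deserts of 3 or 4 windows held 2.57 and 0.167, and set over isolated ones the ratios were 0.809 (0.661 to 0.985) in the transgenic and 0.455 (0.195 to 0.944) in the wild-type list. The transgenic density therefore did not fall steadily with desert length. A transgenic peak was listed in 175 of the 185 deserts and a wild-type peak in 61.

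The 6 deserts of 4 Mb differed in how many peaks they held. The desert between Celf4, a neuronal RNA-binding protein, and Pik3c3, a lipid kinase of autophagy, held 16 transgenic peaks and 1 wild-type peak (chromosome 18, 26000001 to 30000000). That is 4 transgenic peaks per Mb (2.29 to 6.50). The desert between Lrrc4c, a netrin-G ligand, and Iftap on chromosome 2 held 10 transgenic and 0 wild-type peaks, and that between Tenm3 and Aga, a lysosomal enzyme, held 10 and 2. The desert between Dsel and Cntnap5a, a neuronal adhesion protein of the contactin-associated family, held 9 and 0, and that between Slc39a10, a zinc transporter, and Tmeff2 held 8 and 0. The fewest lay between the protocadherin genes Pcdh20 and Pcdh9 (chromosome 14, 89000001 to 93000000), with 6 transgenic peaks and 0 wild-type peaks, or 1.5 per Mb (0.550 to 3.26). The intervals of the fullest and the emptiest of the 6 overlapped.

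Among the 16 deserts of at least 3 Mb, the densest lay between Igfbp7, a secreted binding protein of growth factors, and Adgrl3, a latrophilin adhesion receptor (chromosome 5, 78000001 to 81000000). It held 14 transgenic and 0 wild-type peaks, or 4.67 transgenic peaks per Mb (2.55 to 7.83). Those between Got2 and the cadherin Cdh8, and between Olfm4 and the protocadherin Pcdh17, held 9 transgenic peaks each, with 2 and 1 wild-type peaks. The desert between D3Ertd751e and Pcdh10 held 8 and 0. After the Pcdh20 desert the sparsest lay between 4931417E11Rik and Lrrtm1, a synaptic leucine-rich repeat protein, with 5 and 1, or 1.67 transgenic peaks per Mb. Next came those of Tmeff2 and, with 6 and 0 between Gm29667 and the cadherin Cdh20, both at 2 per Mb, and that of Dsel at 2.25. Of the 16, 7 held a wild-type peak.

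**Figure D4:**
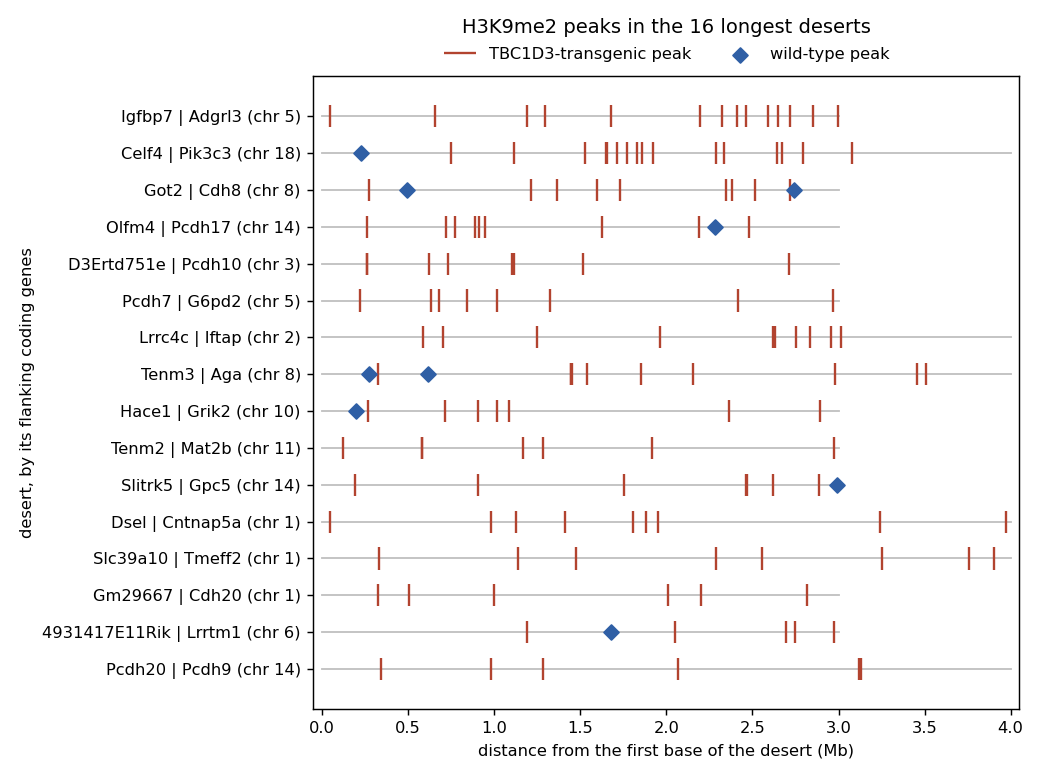
Position of each peak in the 16 deserts of 3 or 4 Mb, in Mb from the desert's first base (x axis); each row is a desert named by its flanking coding genes and chromosome, ordered from most to fewest transgenic peaks per Mb. Red bars are transgenic peaks, from 4.67 per Mb in the top row to 1.5 in the bottom row, and blue diamonds are wild-type peaks, which occur in 7 rows.

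The fullest single windows were spread over several chromosomes. The window beside Gfra2, the neurturin receptor (chromosome 14, 71000001 to 72000000), held 10 transgenic peaks and 1 wild-type peak. Windows with 9 transgenic and 0 wild-type peaks lay beside the helicase gene Dhx35 on chromosome 2, in the Adgrl3 desert and in the Celf4 desert. A window between Icos and Pard3b on chromosome 1 held 8 and 0. At least 2 wild-type peaks were listed in 9 desert windows, which is 3.33% of them where 4.81% of all autosomal windows had as many. The window between Agbl1, a tubulin deglutamylase, and Ntrk3, the neurotrophin-3 receptor, held 7 transgenic and 3 wild-type peaks (chromosome 7, 77000001 to 78000000). That between Epha7, an ephrin receptor, and Map3k7 held 3 and 3. The windows between Vrk2 and Ccdc85a, Vps13c and Rora, and Tmem38b and Zfp462 held 6, 4 and 3 transgenic peaks with 2 wild-type peaks each.

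By chromosome, desert density ran from 1.55 transgenic peaks per Mb on chromosome 15 (0.900 to 2.47) to 4.38 on chromosome 7 (3.05 to 6.08). The other windows of these chromosomes held 2.75 and 2.11, so chromosome 15 deserts lay below their surroundings and chromosome 7 deserts above. The ratio of deserts to other windows was above 1 on 13 of 19 chromosomes in the transgenic library and on 9 of 19 in the wild-type library. Without chromosome 7 the transgenic ratio over all windows was 1.08 and its interval reached 1 (1.00 to 1.17). Leaving out each other chromosome in turn kept it between 1.10 and 1.14 with the interval above 1.

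Desert peaks were small, as were the rest. Their median width was 113 bp in the transgenic list and 57 bp in the wild-type list, and the median peak rested on 6 fragments in both. The narrowest desert peaks were 111 and 57 bp, which is the fragment extension of each call. Both median widths therefore lay at or near the floor set by the call. No wild-type desert peak had a q below 0.274. The median listed fold was 3.73 among transgenic desert peaks and 3.6 among other transgenic peaks. It was 4.30 among wild-type desert peaks and 3.87 among other wild-type peaks. The local background under the peaks, worked out from the listed pileup and fold, moved with this. In units of the listed pileup, its median was 0.987 in transgenic deserts and 1.01 elsewhere, and 0.656 in wild-type deserts and 0.691 elsewhere. Its part in the higher folds was not tested.

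A fold of at least 5 was listed for 23 transgenic desert peaks (3.08%, 1.96 to 4.58), beside 2.66% of all autosomal transgenic peaks. For wild-type desert peaks it was 11 of 73 (15.1%, 7.77 to 25.4), beside 8.36% of all. A −log10 p of at least 5 was listed for 267 (35.7%, 32.3 to 39.3) and 24 (32.9%, 22.3 to 44.9), beside 32.5% and 24.9%. A q no higher than 0.1 stood beside 191 transgenic desert peaks (25.6%, 22.5 to 28.9), against 23.2% of all, and beside 0 wild-type desert peaks, against 0% of all. By fragments the order turned for the transgenic list: 8 or more were counted under 19.9% of its desert peaks (17.1 to 23.0) and 22.3% of its other peaks. In the wild-type list it was 16.4% (8.79 to 27.0) and 13.5%. The interval of each desert share above 0 by fold, p and q included the share over the whole list.

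The 5 desert peaks of lowest p in each library lay between 222 and 994 kb from a coding gene. The first transgenic one lay 274 kb from the predicted gene Gm46900 (chromosome 5, 6024213 to 6024356), with 11 fragments and a fold of 6.52. The next lay 989 kb from Csmd3, a neuronal membrane protein gene on chromosome 15, with a fold of 5.97. Those after it lay 994 kb from Celf4, 713 kb from Fam98a and 709 kb from Tmem182, with folds of 5.54, 5.54 and 5.42. All 5 had the list's lowest q, 0.0673. The first wild-type one also had Csmd3 as its nearest coding gene, 668 kb away (chromosome 15, 46912240 to 46912296), with a fold of 6.25 and a q of 0.274. The others lay 517 kb from Adarb2, 222 kb from Zfp462, 309 kb from the axon guidance receptor gene Robo1 and 500 kb from Dok5, with folds from 5.13 to 5.94.

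Positions were hardly shared between the libraries. Of the 73 wild-type desert peaks 0 overlapped a transgenic peak, which allows a share of up to 4.93%, and 0.539% of all autosomal wild-type peaks did. Within 1 kb of a transgenic peak lay 3 (4.11%), beside 2.96% of all, and within 10 kb lay 9 (12.3%), beside 10.1% of all. The closest pair was 4 bp apart, 24.7 kb from Naaladl2 on chromosome 3, with folds of 3.02 in the transgenic and 5 in the wild-type list. The second lay 639 kb from Sorcs1, a sorting receptor gene, at a distance of 120 bp. The third lay 875 kb from Ctnna3 inside the lncRNA gene Gm30853, at 176 bp. Among transgenic desert peaks 24 lay within 1 kb of another transgenic peak (3.21%, beside 2.51% of all) and 69 within 10 kb (9.24%, beside 10.3%). Each of these shares had the share of its whole list inside its interval.

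The genes at the edges of deserts were taken from 6 lists of neuronal and developmental genes. Of 20560 autosomal coding genes 341 (1.66%) were the nearest coding gene to a desert, and of 207 listed genes 70 were (33.8%). The lists lean to long, isolated genes and were chosen with earlier results of these data known, so this share is no finding. Deserts beside listed genes held 349 transgenic peaks, 2.57 per Mb (2.30 to 2.85), and 32 wild-type peaks, 0.235 per Mb (0.161 to 0.332). Over all 185 deserts the values were 2.79 and 0.272, inside both intervals, and the median desert of either set held 2.5 transgenic peaks per Mb.

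Of 23 cadherin and non-clustered protocadherin genes, which mediate adhesion between like cells, 15 flanked 18 deserts. These held 78 transgenic peaks and 6 wild-type peaks, or 2.11 (1.67 to 2.63) and 0.162 (0.0595 to 0.353) per Mb. The transgenic interval ended below the 2.79 of all deserts, whose own interval (2.59 to 2.99) it overlapped. The median of the 18 deserts was 2 transgenic peaks per Mb, and 17 of them held at least 1. The deserts beside Cdh8 held 14 transgenic and 2 wild-type peaks over 5 Mb, those beside Cdh11 12 and 1, those beside Pcdh17 11 and 1, and those beside Pcdh7 10 and 0. Neighbouring genes such as Cdh8 and Cdh11 share a desert, so its peaks count for both.

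Of 25 genes of leucine-rich repeat, teneurin and latrophilin proteins, which organise synapses, 13 flanked 17 deserts with 101 transgenic and 9 wild-type peaks. The density was 2.73 and 0.243 per Mb, and the median desert held 2.5 transgenic peaks per Mb. The deserts of Adgrl3 held 16 transgenic and 0 wild-type peaks and those of Adgrl2, another latrophilin, 15 and 1. Flrt2, a teneurin and latrophilin ligand, had 12 and 1 beside it, and Lrrc4c 11 and 1.

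Of 29 axon guidance genes 11 flanked 12 deserts, with 55 transgenic and 8 wild-type peaks. These had the highest density of the 6 lists, 3.24 transgenic peaks per Mb (2.44 to 4.21) and 0.471 wild-type peaks per Mb (0.203 to 0.927), with intervals that included the values of all deserts. The desert beside Unc5d, a netrin receptor, held 10 transgenic and 0 wild-type peaks over 2 Mb. Those beside the Slit receptor Robo1 held 8 and 2, those beside Epha7 7 and 3, and that beside the ephrin gene Efnb2 7 and 1.

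Of 23 immunoglobulin adhesion and neurexin genes 11 flanked 12 deserts, at 2.70 transgenic and 0.200 wild-type peaks per Mb. The deserts beside Lsamp, Cntnap5a, the contactin Cntn5 and the adhesion molecule gene Ncam2 held 10, 9, 8 and 6 transgenic peaks, with 1 wild-type peak beside Cntn5 and 0 beside the other genes. Of 25 glutamate and GABA receptor genes 6 flanked a desert, at 2.67 transgenic and 0.222 wild-type peaks per Mb. Those of the kainate receptor gene Grik2 and the metabotropic receptor gene Grm7 held 7 transgenic peaks and 1 wild-type peak each, and those of Grm8 and Grm3 held 4 and 3 transgenic and 0 wild-type peaks.

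Of 82 developmental transcription factor genes 14 flanked a desert, at 2.31 transgenic (1.63 to 3.19) and 0.188 wild-type (0.0387 to 0.548) peaks per Mb. The desert beside Tshz1, a zinc finger regulator of forebrain neurons, held 7 transgenic peaks and 1 wild-type peak in 1 Mb. That beside Nr2f1, which patterns the cortex, held 5 and 0, that beside Nr2f2 4 and 0, and that beside Pou3f3, a factor of upper-layer neurons, 3 and 0. The deserts beside Pou3f2 and Dach1 held 0 peaks in both libraries. A count of 0 in 1 Mb allows up to 3.69 peaks per Mb, above the 2.79 of all deserts, so a lower density beside these genes was not detectable.

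**Figure D5:**
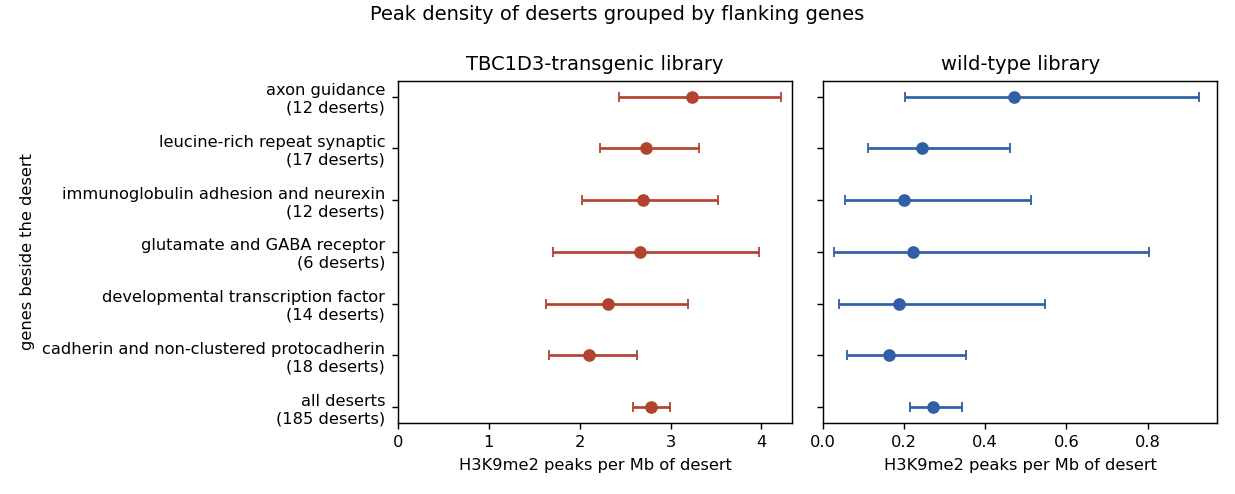
Peaks per Mb of desert (x axis) for deserts grouped by the list their flanking coding genes belong to (rows, with the number of deserts), transgenic library left and wild-type library right; points are pooled densities and bars exact Poisson 95% intervals. Axon guidance deserts lie highest at 3.24 and 0.471 and cadherin and protocadherin deserts lowest at 2.11 and 0.162, with all 185 deserts at 2.79 and 0.272 in the bottom row.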

How the data were processed

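The data are 2 lists of peaks, 1 a library. Both were made with MACS 2.1.0.20150420 at a p cutoff of 0.001 with the library's own input as control, per the file headers, and the submitters' processing notes name BWA and mm10. The authors' pileup, a signal, had whichever of ChIP and input was larger scaled down, as the headers state. Pileup divided by the ChIP scale (1 transgenic, 0.951 wild-type) was a whole number of fragments within 0.02 for 100% of peaks. For the deposited fold, a ratio, the local background was solved from (pileup + 1) over (background + 1), and a Poisson p at that background matched the deposited −log10 p within 0.01 for 100% of autosomal peaks. The deposited −log10 q values are listed although the headers say that q was not calculated.

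Genes came from RefSeq GRCm38.p6, and chromosomes were taken to end at the last listed gene or peak. The first 3 Mb of each chromosome, with 0 peaks, were left out. The 328 entries that start there, 105 of them coding, were assumed to lie on unplaced scaffolds, which the annotation does not say. None of the coding ones has its midpoint in a window used. Positions 10 kb apart gave the length at each distance from a coding gene. Shares have Clopper-Pearson, densities Poisson and ratios exact conditional intervals. Counts and ratios were computed with Python 3.11.15 and scipy 1.17.1, and the code was tested on simulated data. Alternatives were stricter fold and p limits, merged peaks, other window sizes, starts and gene sets, the first 3 Mb kept, and a shortened transgenic list.

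The members and lists were chosen with earlier results of these data known. Named were deserts by length and by highest and lowest density, fullest windows, peaks of highest −log10 p, up to 5 noncoding host genes with at least 2 peaks in a library, and up to 4 members of each list, plus up to 2 with no peak. Coding host genes, 4930474G06Rik, which tied with the noncoding hosts named, and antigen receptor windows were named after their values were seen. No genome sequence was used, so base composition and mappability were not analysed here.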

Additional observations from a re-analysis of the deposited data

Results flagged for a closer look

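The density of deserts over other windows lay on opposite sides of 1 in the 2 libraries, at 1.11 in the transgenic library and 0.869 in the wild-type library. With 1 library a genotype this difference was not tested between genotypes. The wild-type interval included 1, and the odds ratio between the lists was 1.28 (0.992 to 1.67). Both ratios lay above 1 at a fold or −log10 p of at least 5 and with windows of 500 kb. Both lay below 1 with windows of 2 Mb and with the first 3 Mb of each chromosome counted as length. Under the other alternatives run for both libraries the ratios stayed on opposite sides of 1.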

How the results depend on the processing

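No paired analysis was possible because each genotype had 1 library, and no library could be left out. Peak number, call settings and the 1 Mb grid limit what these lists show. The distance and no-gene ratios, and leaving out antigen receptor windows, chromosome 7 or chromosome 15, were added after seeing the data. For the values that moved or turned, the cause was not tested, beyond shorter lists under stricter limits and fewer deserts with larger windows. A fold of at least 5 left 23 transgenic and 11 wild-type desert peaks (ratio 2.09), beside 139 and 51 peaks in other windows. The desert to other ratio was then 1.32 in the transgenic and 1.72 in the wild-type list. Raising the −log10 p to 5 or more kept 267 and 24 desert peaks, beside 1711 and 161 in other windows, with 1.24 and 1.19. Windows of 500 kb gave 1712 and 178 peaks, with 1.34 and 1.08, and windows of 2 Mb gave 182 and 14, with 0.918 and 0.573. Keeping the first 3 Mb in the length gave 0.969 for the transgenic list and 0.757 for the wild-type list. Cutting the transgenic list to the wild-type number left 108 peaks and a desert to other ratio of 1.36. The transgenic to wild-type ratio in deserts was then 1.48, where lists of equal number give 1 over all windows. In sequence of no gene, the transgenic ratio was 1.07 at a fold of at least 5, 1.02 with the higher −log10 p, 1.08 with 500 kb windows, 0.766 with 2 Mb windows and 1.11 with the shortened list. The wild-type one was 1.31 at a fold of at least 5 and 0.893 with the higher −log10 p. Shared desert peaks were 3 within 1 kb and 9 within 10 kb, and 0 under the other alternatives. Merging within 1 kb, windows shifted by 500 kb, deserts free of any coding body and leaving out predicted genes turned no direction. Without chromosome 15 the transgenic no-gene ratio was 0.930 (0.851 to 1.01).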
